A study of Mus musculus with 7 samples.

Results

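The potassium channel genes of the mouse were followed in nasal tissue after inhalation of diesel exhaust particles (DEPs). Members are all genes whose symbol, read through the transcript accession of a probe, starts with *Kcn*, and 98 such genes with 137 probes were found among 32095 genes or transcripts with a probe. The mice were BALB/c females aged 6 weeks, and the exposed mice inhaled DEPs at 100 µg/m3 in a nebuliser chamber for 4 or 8 weeks. The control mice had no DEPs, and the study, which describes the 4-week exposure, treated them with saline in the same way. RNA of the nasal cavity of exposed mice (Cy5) was hybridised on each Agilent array together with RNA of control mice (Cy3). The 4 arrays of the 4-week exposure and 3 of the 8-week exposure are replicates by the labels. The dyes were not swapped, so dye and exposure cannot be told apart, and each exposure time has its own slide, so slide and time cannot be told apart either. How many mice gave RNA to an array, and whether control RNA was pooled or shared between arrays, is not given in the sources used here.

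Potassium channels let potassium leave or enter cells along its gradient and so set the resting potential and end the action potential. The voltage-gated family opens on depolarisation, the inward rectifiers and the tandem-pore channels carry current near rest, calcium-activated channels couple the membrane to intracellular calcium, and silent and auxiliary subunits alter the channels they join. In the nose, olfactory sensory neurons use them to shape the receptor potential and the spikes that travel to the olfactory bulb, while epithelial and glial cells use them for fluid secretion and potassium clearance.

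Testing required that 3 or more of the 7 arrays showed a probe well above its background with DEP or with control RNA, which 62 of the 98 genes passed and 36 did not. Of these 36, 17 were above background on no array and 19 on 1 or 2 arrays, among them *Kcnb2*, *Kcnh1*, *Kcnj3*, *Kcnj6*, *Kcnj9*, *Kcnq3* and *Kcnq5*. Among the 62, 33 stood clear of the background with both RNAs throughout the 7 arrays, 7 reached it on fewer than 3 arrays in the control channel and 2 on fewer than 3 arrays in the DEP channel, so the last 9 passed through the other channel. Of these 9, *Kcnk15* and *Kcnn3* were called, each as higher in the DEP channel through which it passed, so those calls are no support for a rise. Over all probes, 18476 to 25062 per array were detected with DEP RNA and 16819 to 26920 with control RNA, and precision is limited by how few arrays there are. Log2 ratios of different arrays correlated at 0.44 to 0.49 within 4 weeks, at 0.71 to 0.88 within 8 weeks and at 0.09 to 0.29 between the exposure times, as a description across probes. All 10 markers of olfactory sensory neurons were measured in both channels at both times, whereas none of the 4 markers of tuft cells passed the filter.

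Among the potassium channel genes called after 4 weeks more were up-regulated than down-regulated, and among those called after 8 weeks the reverse was found. By limma with Benjamini-Hochberg adjustment over all tested probes, 20 of the 62 genes rose and 5 fell at an adjusted p of at most 0.05 after 4 weeks, beside 21.7% of all tested genes that rose and 16.6% that fell. After 8 weeks 9 rose, beside 20.4% of all genes, and 22 fell, beside 17%. At the thresholds of the study (p of at most 0.01 and 2-fold), *Kcna4* and *Kcnj5* passed after 4 weeks and *Kcna4* alone after 8 weeks, while 1.3% and 2.95% of all genes did. The median log2 ratio of the 62 genes was 0.096, 0.088, 0.058 and 0.092 on the 4 arrays of 4 weeks and -0.151, -0.143 and -0.181 on the 3 arrays of 8 weeks, so the arrays of the exposure times did not overlap. On the same arrays the median of all genes lay between 0.01 and 0.04. Called or not, 31 of the 62 genes had a fitted log2 ratio above 0 at 4 weeks (median 0.02) and 19 at 8 weeks (median -0.17). Of all 20636 tested genes 10364 and 10736 did. Without replicate 2 or without replicate 3 of 8 weeks the number of fallen genes dropped from 22 to 10, and with the test named in the methods it was also 10. Over all 20636 tested genes the falls dropped from 3507 to 1965, 2436 and 2244 in the same runs. The 8-week calls that held under every alternative run were those of *Kcna4*, *Kcnab1*, *Kcnj10*, *Kcnj13*, *Kcnk10*, *Kcnmb3*, *Kcns3* and *Kcnk15*, the last of which passed the filter through the DEP channel alone. At 4 weeks 14 calls held, among them those of *Kcna4*, *Kcna6*, *Kcna7*, *Kcnc4*, *Kcnh3*, *Kcnh4*, *Kcnj1*, *Kcnj5*, *Kcnk1*, *Kcnk4*, *Kcnma1*, *Kcnq1* and *Kcnrg*.

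**Figure D1:**
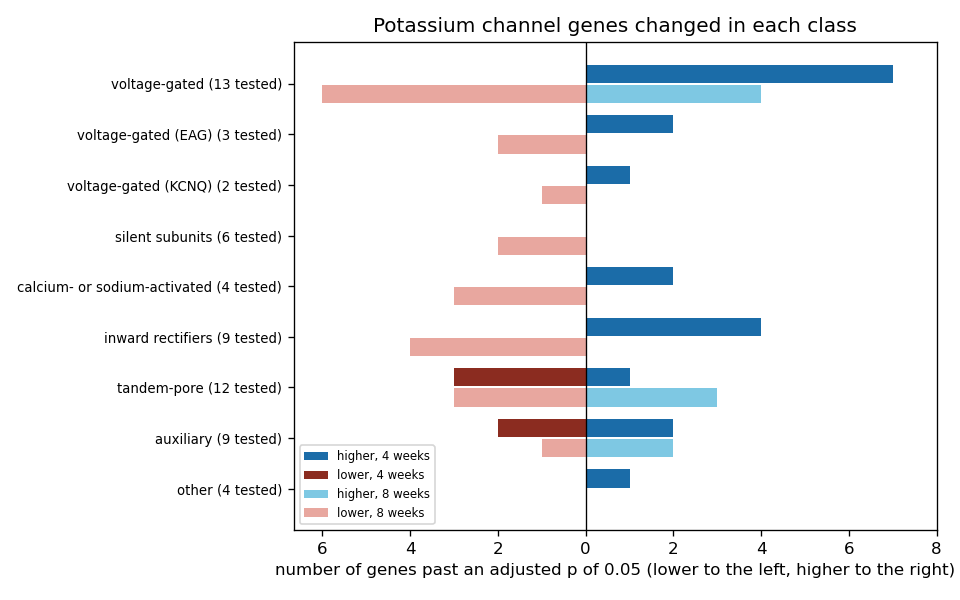
Number of potassium channel genes in each class with an adjusted p of at most 0.05 after 4 weeks (dark bars) and after 8 weeks (light bars), with genes that rose to the right of 0 and genes that fell to the left. Among voltage-gated genes 7 rose and 0 fell after 4 weeks, and 4 rose and 6 fell after 8 weeks.

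The share of up-regulated calls depended on the scaling. Over all genes 56.7% of the 4-week calls and 54.5% of the 8-week calls were up-regulated with loess, against 42.5% and 26.9% with median centring, which moved the median of all genes to -0.106 at 8 weeks. With the processed signals of the scanner software 67.9% of the 4-week calls were up-regulated. Among the potassium channel genes, 17 rose and 6 fell at 4 weeks and 4 rose and 28 fell at 8 weeks with median centring, and 24 rose and 8 fell at 4 weeks with the processed signals. Of all 20636 tested genes, 3218 rose and 4354 fell at 4 weeks with centring, and 2531 rose and 6878 fell at 8 weeks. With the processed signals 6369 rose and 3010 fell at 4 weeks. With centring the mean of the per-array medians of the 62 genes was -0.25 at 8 weeks, beside that median of all genes.

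*Kcna4* encodes a voltage-gated channel of the Shaker family that inactivates rapidly (an A-type current). Its log2 ratio of DEP over control was 1.32, 1.13, 1.20 and 1.24 on the arrays of 4 weeks and 1.493, 1.498 and 1.554 on those of 8 weeks. It was higher in DEP RNA on 7 of 7 arrays, and all 8-week arrays lay above all 4-week arrays. The fitted log2 ratio was 1.22 ± 0.05 (SE, n = 4, limma, adjusted p = 4.5e-06), a 2.33-fold difference, and 1.51 ± 0.05 (SE, n = 3, limma, adjusted p = 2.3e-06), a 2.86-fold difference. Both calls held under each of the 17 alternatives, with log2 ratios between 1.08 and 1.39 at 4 weeks and between 1.20 and 1.60 at 8 weeks. The level of *Kcna4*, in log2 units after normalization between channels, was 9.62 to 9.83 in the DEP channel and 8.42 to 8.68 in the control channel at 4 weeks. At 8 weeks it was 10.32 to 10.57 in the DEP channel and 8.82 to 9.02 in the control channel, so the channels did not overlap at either time. Among the 62 fitted log2 ratios *Kcna4* held rank 2 after 4 weeks and rank 1 after 8 weeks, where the next highest value was 0.51 (*Kcna7*). The 8-week ratio exceeded the 4-week ratio by 0.29 (limma, adjusted p = 0.019). That difference lost its call with the processed signals (0.19), median centring (0.07), the background fitted on all spots (0.41) and the replicate block (0.30). It was also lost without replicate 2 of 4 weeks or replicate 2 or 3 of 8 weeks. Over the arrays left out in turn the difference was 0.26 to 0.33. *Kcna4*, *Kcnj1* and *Kcnj5* are in the list of changed genes that the study drew from these samples, so their direction at 4 weeks is not independent evidence.

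The inward rectifiers *Kcnj5*, a subunit of channels opened by G proteins, and *Kcnj1*, a channel known from potassium secretion in the kidney, rose at 4 weeks and fell at 8 weeks. *Kcnj5* had log2 ratios of 1.37, 1.04, 1.39 and 1.42 on the arrays of 4 weeks and of -0.26, -0.38 and -0.39 on those of 8 weeks. Every 4-week array was above 0 and every 8-week array below it. The fit gave 1.30 ± 0.07 (SE, n = 4, limma, adjusted p = 1.3e-05) and -0.34 ± 0.08 (SE, n = 3, limma, adjusted p = 0.014), and a difference of -1.65 (limma, adjusted p = 6.4e-05). The fall at 8 weeks lost its call under 5 of 17 alternatives. These were the processed signals, the background fitted on all spots, the replicate block and leaving out replicate 2 or 3 of 8 weeks. The rise at 4 weeks kept its call under all 17 alternatives. *Kcnj1* had log2 ratios of 1.02, 1.04, 0.91 and 0.71 at 4 weeks and of -0.23, -0.33 and -0.18 at 8 weeks. These values did not overlap, and their fitted difference was -1.16 (limma, adjusted p = 0.00018). The control RNA of *Kcnj1* was well above background on only 1 of the 4 arrays of 4 weeks, and its 4-week value of 0.92 was 2.59 with the processed signals, so its size is uncertain. Its 8-week value of -0.24 lost its call under 8 of 16 alternatives.

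In both genes the control channel differed more between the slides than the DEP channel. The control level of *Kcnj5* was 7.13, 7.70, 7.34 and 7.37 at 4 weeks and 9.98, 9.99 and 10.14 at 8 weeks. Its DEP level was 8.49, 8.74, 8.73 and 8.79 at 4 weeks and 9.72, 9.61 and 9.76 at 8 weeks. The control level of *Kcnj1* was 6.23 to 6.35 at 4 weeks and 8.26 to 8.40 at 8 weeks, against 7.06 to 7.34 and 7.93 to 8.22 in the DEP channel. Slide, mouse age and exposure time move together in these levels and cannot be told apart.

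**Figure D2:**
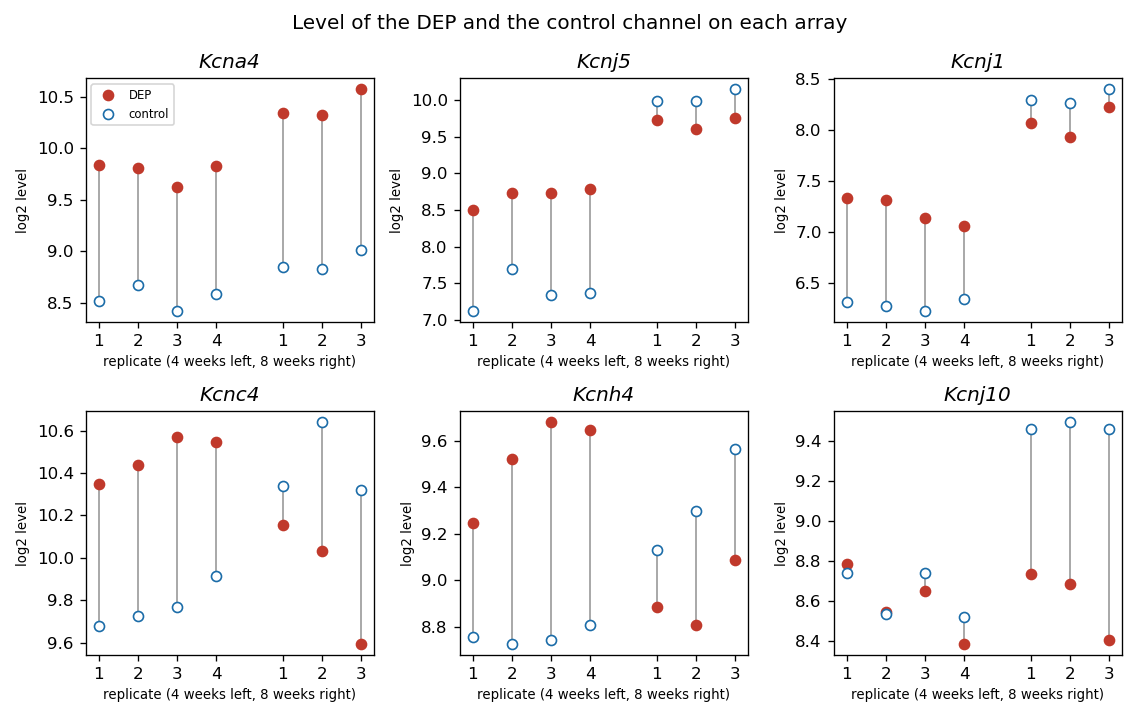
Level of the DEP channel (filled) and of the control channel (open) in log2 units on each array, with replicates of 4 weeks on the left and of 8 weeks on the right, and a line joining the channels of an array. *Kcna4* is higher in DEP RNA on every array, and in *Kcnj5*, *Kcnj1*, *Kcnc4* and *Kcnh4* the channels change places between the exposure times.

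The genes *Kcnj5* and *Kcnj1* neighbour each other on chromosome 9 with 0 protein-coding genes between them, by the order of genes in RefSeq (GRCm38.p6), and their starts lie on opposite strands. The promoters of these genes and of *Kcna4*, from 250 bases before to 50 bases after the start, are shown because they belong to the potassium channel genes with the largest log2 ratios at 4 weeks. Capitals mark GCGTG, the core that the aryl hydrocarbon receptor is known to bind in genes induced by combustion products, searched on both strands. The sequences are those of RefSeq on GRCm38.p6, written 5′ to 3′ on the strand of the gene.
Kcna4, chr2:107290339-107290638, plus strand: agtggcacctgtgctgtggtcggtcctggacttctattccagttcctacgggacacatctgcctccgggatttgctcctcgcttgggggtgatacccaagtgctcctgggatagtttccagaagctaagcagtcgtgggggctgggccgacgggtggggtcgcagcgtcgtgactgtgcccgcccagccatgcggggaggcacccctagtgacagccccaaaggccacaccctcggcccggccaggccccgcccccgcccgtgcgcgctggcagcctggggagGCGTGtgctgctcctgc
Kcnj1, chr9:32393735-32394034, plus strand: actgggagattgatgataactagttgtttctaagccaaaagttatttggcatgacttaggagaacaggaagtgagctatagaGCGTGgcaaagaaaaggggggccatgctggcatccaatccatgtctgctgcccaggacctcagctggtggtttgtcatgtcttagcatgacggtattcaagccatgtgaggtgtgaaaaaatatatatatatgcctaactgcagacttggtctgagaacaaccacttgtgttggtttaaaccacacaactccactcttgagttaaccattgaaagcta
Kcnj5, chr9:32344295-32344594, minus strand: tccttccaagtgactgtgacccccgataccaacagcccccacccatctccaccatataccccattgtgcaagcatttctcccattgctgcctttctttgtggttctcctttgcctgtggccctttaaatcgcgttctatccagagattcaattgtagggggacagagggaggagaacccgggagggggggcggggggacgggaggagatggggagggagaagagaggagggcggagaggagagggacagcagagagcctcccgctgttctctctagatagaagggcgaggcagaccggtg

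GCGTG stands once in the windows of *Kcna4* and *Kcnj1* and not in that of *Kcnj5*. Of all 27025 promoters of this length 32.5% hold it, and so do 15 of the 48 tested potassium channel genes that the promoter table lists (31.2%). A match is a description of letters and not a binding site.

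Across the family, 10 genes rose after 4 weeks and fell after 8 weeks at an adjusted p of at most 0.05 at both times, which is 16.1% of the 62 genes beside 3.49% of all tested genes. They included *Kcna5*, *Kcna6*, *Kcnc4*, *Kcnh3*, *Kcnh4*, *Kcnj1*, *Kcnj5*, *Kcnma1* and *Kcnq1*. The count of 10 was 2 without replicate 2 of 8 weeks, 3 without replicate 3 of 8 weeks, 6 without replicate 2 or without replicate 4 of 4 weeks, 4 with the background fitted on all spots and 2 with the test named in the methods. The difference between the exposure times held its call under every alternative run in each of these genes except *Kcna5*, which lost it with the replicate block. The opposite order, a fall and then a rise, was found for *Kcnab1* and *Kcne3* (2 genes, beside 2.59% of all). *Kcna4*, *Kcna7*, *Kcnd1* and *Kcnk4* rose at both times (4 genes, beside 8.11%), and *Kcnk1* and *Kcnk10* fell at both (2 genes, beside 4.99%). At neither time were 24 genes called. In the test of the difference itself, 21 genes were lower and 5 higher after 8 weeks than after 4 weeks, beside 16.1% and 14.9% of all genes. Of the 5, *Kcnk15* passed the filter through the DEP channel alone, so its call is no support for a rise. The difference was past a p of 0.01 and 2-fold in *Kcnj5*, *Kcnc4*, *Kcnh4* and *Kcnj1*, beside 3.07% of all genes.

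**Figure D3:**
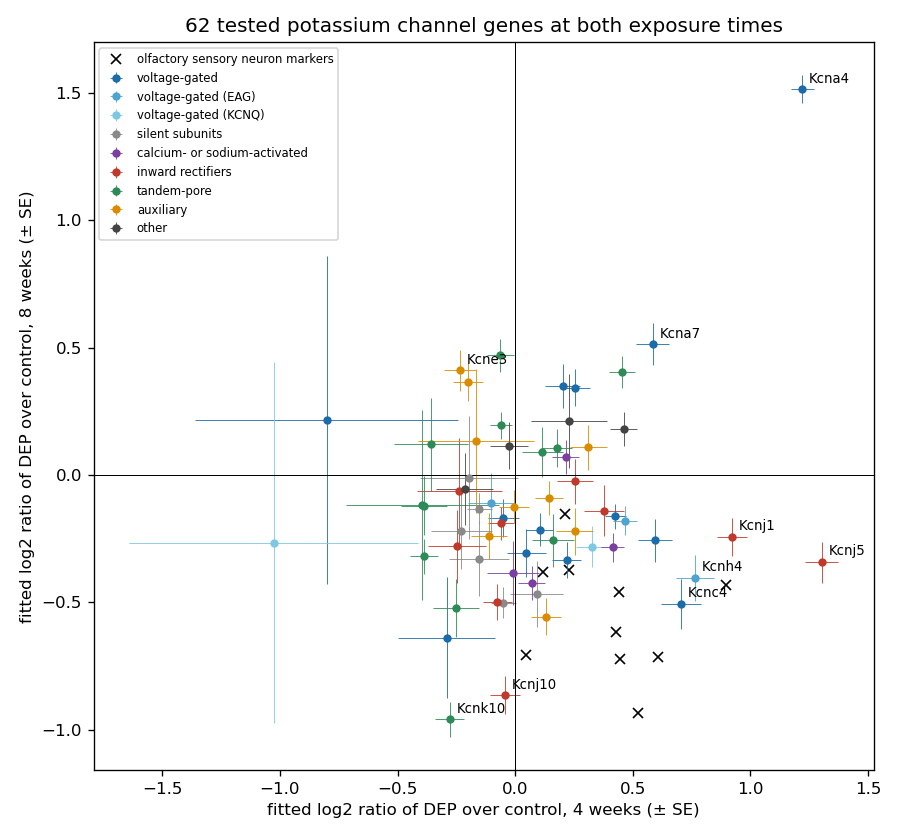
Fitted log2 ratio of DEP over control after 4 weeks (x axis) and after 8 weeks (y axis) of the 62 tested potassium channel genes, with bars of 1 SE and colours for the class, and of 10 markers of olfactory sensory neurons (crosses). *Kcna4* stands alone at the upper right with 1.22 and 1.51, and the genes that rose and then fell lie at the lower right with the markers.

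Among the voltage-gated genes, 7 of 13 rose and 0 fell after 4 weeks, beside 21.7% and 16.6% of all tested genes, and 4 rose and 6 fell after 8 weeks, beside 20.4% and 17%. *Kcnc4*, which encodes a channel of fast repolarisation, had log2 ratios of 0.67, 0.71, 0.80 and 0.63 at 4 weeks and of -0.19, -0.61 and -0.72 at 8 weeks. The signs differed between the exposure times on every array, and the difference was -1.21 (limma, adjusted p = 0.00055). The fall of *Kcnc4* at 8 weeks lost its call with the test named in the methods. *Kcna6* rose by 0.43 at 4 weeks on 4 of 4 arrays and stood at -0.16 at 8 weeks (limma, adjusted p = 0.038), a call lost under 12 of 17 alternatives. *Kcna5* gave 0.22 and -0.34 on its brightest probe, and its second tested probe gave 0.34 and 0.07, so its fall rested on 1 probe. The rise of *Kcna5* lost its call under 7 of 17 alternatives, and its fall under 4 of 17, the mean over its probes among them.

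In the Shaker subfamily, *Kcna7* moved in the direction of *Kcna4*. Its log2 ratios were 0.37, 0.66, 0.62 and 0.69 at 4 weeks and 0.58, 0.63 and 0.34 at 8 weeks, and the exposure times overlapped. Its second tested probe gave -0.01 at 4 weeks and -0.29 at 8 weeks, so the probes of this gene disagreed. The rise at 8 weeks lost its call with median centring, with the mean over its probes and with the test named in the methods. *Kcna2* stood at -0.31 at 8 weeks (limma, adjusted p = 0.038, lost under 8 of 16 alternatives), and its difference between times was not called (limma, adjusted p = 0.068). *Kcna1* gave -0.29 at 4 weeks and -0.64 at 8 weeks without passing the test, with -1.55 on replicate 1 of 8 weeks against -0.22 and -0.14 on the others. *Kcna1* lies between *Kcna5* and *Kcna6* in the order of protein-coding genes on chromosome 6, and those neighbours rose at 4 weeks.

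The A-type channel genes *Kcnd1* and *Kcnd3* differed from each other. *Kcnd1* rose at both times, by 0.25 at 4 weeks and 0.34 at 8 weeks. The call at 4 weeks was lost under 5 of 17 alternatives and that at 8 weeks under 3 of 17. Median centring and the test named in the methods were among them at both times. *Kcnd3* stood at 0.10 at 4 weeks (not called) and fell by 0.21 at 8 weeks, a call lost under 6 of 16 alternatives.

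The ether-à-go-go channel genes *Kcnh3* and *Kcnh4*, expressed mainly in the nervous system, rose together at 4 weeks and fell at 8 weeks. *Kcnh4* had log2 ratios of 0.49, 0.80, 0.93 and 0.84 at 4 weeks and of -0.25, -0.49 and -0.48 at 8 weeks. *Kcnh3* had 0.48, 0.44, 0.46 and 0.49 at 4 weeks and -0.09, -0.13 and -0.31 at 8 weeks. In both genes no 8-week array reached the lowest 4-week array. The differences were -1.17 for *Kcnh4* (limma, adjusted p = 0.00048) and -0.65 for *Kcnh3* (limma, adjusted p = 0.00083). The fall of *Kcnh3* at 8 weeks (-0.18, limma, adjusted p = 0.042) lost its call under 11 of 17 alternatives. That of *Kcnh4* (-0.40, limma, adjusted p = 0.011) lost it under 5 of 17, among them the mean over its probes and leaving out replicate 2 or replicate 3 of 8 weeks. The second tested probe of *Kcnh4* gave 0.26 at 4 weeks and -0.09 at 8 weeks, the latter without a call. *Kcnh2* gave -0.10 and -0.11 without a call. *Kcnq1*, a channel of epithelia and heart muscle, rose by 0.33 at 4 weeks and fell by 0.28 at 8 weeks, and its second tested probe gave 0.36 and -0.25. The fall of *Kcnq1* lost its call with the replicate block and without replicate 2 or replicate 3 of 8 weeks.

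Of the calcium-activated channels, *Kcnma1*, which encodes the channel of large conductance that also senses voltage, gave 0.41, 0.47, 0.49 and 0.29 at 4 weeks and -0.34, -0.27 and -0.24 at 8 weeks. All arrays of the first time were above 0 and all of the later time below it (difference -0.70, limma, adjusted p = 0.00057). It has 4 tested probes, and at 8 weeks the other 3 gave -0.10, 0.10 and 0.13 without a call, so its fall rested on the brightest probe. In the same order these probes gave 0.17, 0.66 and -0.06 at 4 weeks, where only 0.66 was called. Their differences between the exposure times were -0.27, -0.56 and 0.18, of which only -0.56 was called, so the probes also disagreed there. *Kcnn2*, a channel of small conductance, stood at 0.07 at 4 weeks (not called) and had -0.55, -0.26 and -0.47 at 8 weeks. Its fitted fall at 8 weeks was 0.43 (limma, adjusted p = 0.0022), a call lost with the test named in the methods. *Kcnn4* fell by 0.39 at 8 weeks, a call lost under 7 of 17 alternatives. *Kcnn3* passed the test at 4 weeks, but its control RNA was not well above background on any array of that time and no fold is given.

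The silent subunits, which form channels only together with other voltage-gated subunits, had 0 calls among 6 genes at 4 weeks, where 21.7% of all genes rose and 16.6% fell. At 8 weeks 2 of the 6 fell, beside 17% of all genes. Some of the 6 were dim, and *Kcnf1* and *Kcns1* were above background on only 1 array of 4 weeks in each channel. *Kcns3* gave -0.47, -0.46 and -0.57 at 8 weeks against -0.15 to 0.09 at 4 weeks, and the groups did not overlap (difference -0.45, limma, adjusted p = 0.0053). *Kcng1* fell by 0.47 at 8 weeks, a call lost under 4 of 16 alternatives.

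Among the other inward rectifiers, *Kcnj10*, which glial and epithelial cells use to take up potassium, had the lowest log2 ratio at 8 weeks. Its log2 ratios were 0.04, 0.01, -0.09 and -0.13 at 4 weeks and -0.73, -0.81 and -1.06 at 8 weeks, a fitted -0.86 ± 0.07 (SE, n = 3, limma, adjusted p = 0.00011). The call at 8 weeks held under all 17 alternatives. Its partner in such channels, *Kcnj16*, rose by 0.38 at 4 weeks and gave -0.14 at 8 weeks without a call. *Kcnj13*, another epithelial rectifier, fell by 0.50 at 8 weeks on 3 of 3 arrays, and its second tested probe gave -0.12 there. *Kcnj15* rose by 0.25 at 4 weeks, a call lost under 7 of 17 alternatives.

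The tandem-pore channels carry background potassium current, and their members went separate ways. *Kcnk10*, a channel opened by stretch and by lipids, gave -0.21, -0.23, -0.24 and -0.44 at 4 weeks and -0.82, -0.99 and -1.06 at 8 weeks. It fell at both times and further at 8 weeks (difference -0.68, limma, adjusted p = 0.0016). *Kcnk1* fell by 0.39 at 4 weeks and by 0.32 at 8 weeks, with no call of a difference. *Kcnk4*, a stretch-sensitive relative of *Kcnk10*, rose by 0.45 at 4 weeks and by 0.40 at 8 weeks. It lost the later call with median centring and with the test named in the methods, and its second tested probe gave -0.11 and 0.24. *Kcnk15* was at -0.06 at 4 weeks, when its control RNA was below background on every array, and at 0.47 at 8 weeks. Its control RNA was well above background on 2 arrays, both of 8 weeks, and its DEP RNA on 4, so it was tested only because of the channel in which it was higher. *Kcnk5*, a channel opened by alkaline fluid, fell by 0.52 at 8 weeks, a call lost without replicate 2 of 8 weeks. *Kcnk6* fell by 0.39 at 4 weeks, a call lost under 3 of 17 alternatives. *Kcnk13* rose by 0.19 at 8 weeks, a call lost under 6 of 16 alternatives.

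Among the auxiliary subunits, *Kcne3*, which keeps the *Kcnq1* channel open in epithelia, moved opposite to *Kcnq1*. Its log2 ratios were -0.11, -0.29, -0.38 and -0.16 at 4 weeks and 0.28, 0.37 and 0.59 at 8 weeks (difference 0.65, limma, adjusted p = 0.0036). Its second tested probe gave -0.37 and 0.30, and the fall at 4 weeks lost its call under 8 of 17 alternatives. *Kcnab1*, a cytoplasmic beta subunit of Shaker channels including that of *Kcna4*, gave -0.02, -0.36, -0.21 and -0.21 at 4 weeks and 0.49, 0.32 and 0.28 at 8 weeks. The signs differed between the exposure times, and the fall at 4 weeks lost its call under 11 of 16 alternatives. *Kcnmb3*, a beta subunit of the *Kcnma1* channel, fell by 0.56 at 8 weeks on 3 of 3 arrays, and *Kcnmb2* gave 0.31 at 4 weeks. The call of *Kcnmb2* was lost under 7 of 17 alternatives, with values down to 0.07, and its second tested probe gave -0.17. *Kcnip4*, a calcium-binding subunit of A-type channels, gave 0.25 at 4 weeks (limma, adjusted p = 0.038), a call lost under 11 of 17 alternatives. *Kcnrg*, a soluble protein that binds voltage-gated subunits, rose by 0.46 at 4 weeks and gave 0.18 at 8 weeks without a call, and its second tested probe gave -0.04 and -0.02.

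**Figure D4:**
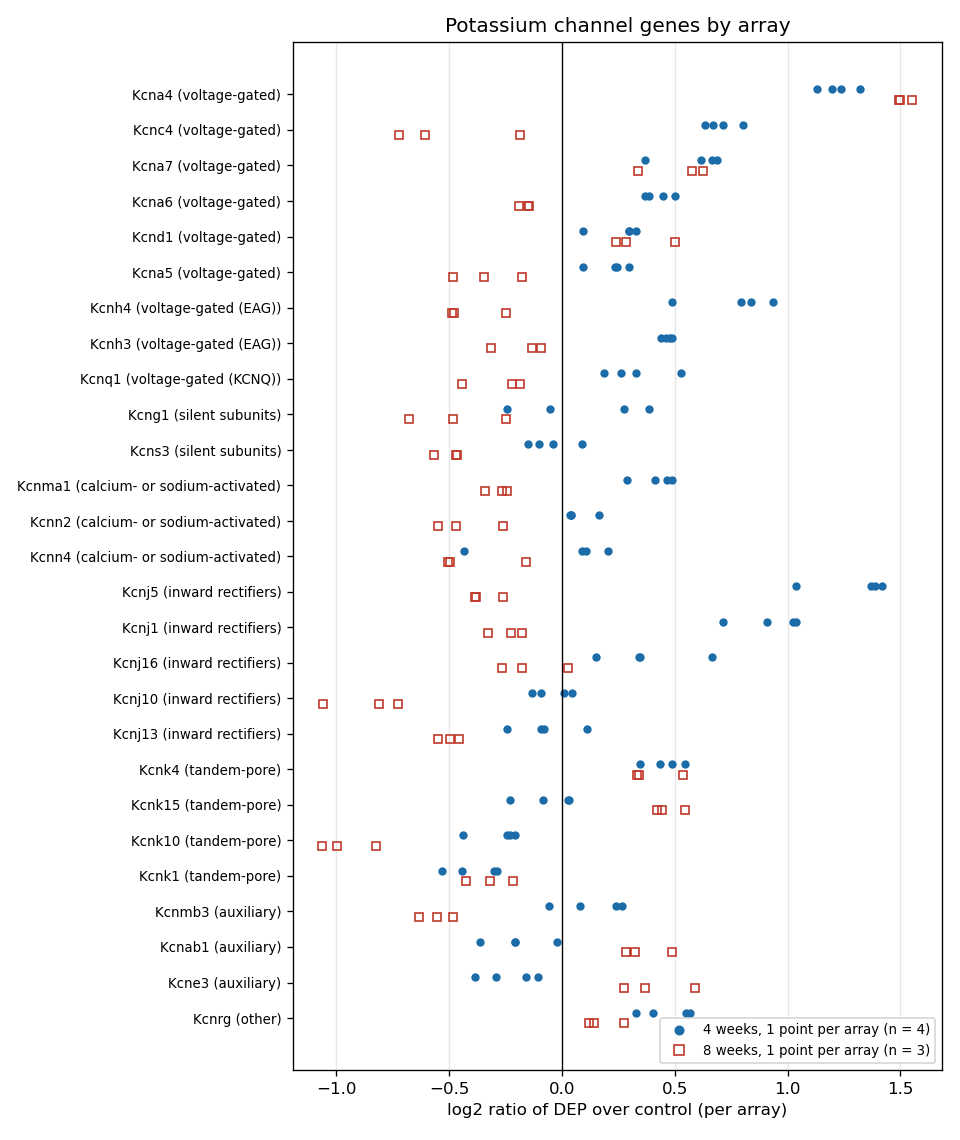
Log2 ratio of DEP over control on each array for 27 potassium channel genes grouped by class, with filled circles for the 4 arrays of 4 weeks and open squares for the 3 arrays of 8 weeks. *Kcna4* lies above 1.1 on every array, and in *Kcnc4*, *Kcnh4*, *Kcnj5* and *Kcnj1* the circles lie above 0 and the squares below it.

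The dim genes *Kcna3* and *Kcnk2* had low fitted log2 ratios at 4 weeks that were not called, and each had a bright control spot on 1 array. *Kcna3* had -3.44 on replicate 2, with a control level of 9.78 there against 6.08 to 6.57 on the other arrays of 4 weeks. *Kcnk2* had -1.90 on replicate 3. On their other arrays of 4 weeks these genes lay between -0.17 and 0.42.

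The markers of olfactory sensory neurons moved with the genes that rose and then fell. Of these 10 markers, 7 rose and 0 fell after 4 weeks, 0 rose and 9 fell after 8 weeks, and 7 did both, with list medians of 0.43 and -0.54. The shares of all tested genes, for this and the following lists, were 21.7% risen and 16.6% fallen at 4 weeks and 20.4% and 17% at 8 weeks. Of all tested genes 3.49% rose and then fell, and 2.59% fell and then rose. *Omp*, the marker protein of mature olfactory neurons, gave 0.89 and -0.43, and *Gng13*, a G protein subunit of odour transduction, gave 0.52 and -0.94. The summed level of the 10 markers was 17.20 to 17.34 in the DEP channel and 16.35 to 16.59 in the control channel at 4 weeks, and 16.59 to 16.65 and 17.07 to 17.23 at 8 weeks, in log2 units. The 5 markers of immature neurons moved the same way, with 5 of 5 above 0 and 3 that rose at 4 weeks, 2 that fell at 8 weeks and medians of 0.30 and -0.28. The same 2 (*Dcx* and *Tubb3*) rose and then fell, and the summed level of the 5 was 12.03 to 12.14 in the DEP channel and 11.75 to 11.81 in the control channel at 4 weeks, and 11.37 to 11.49 and 11.77 to 11.90 at 8 weeks. The part of both kinds of neuron in the result was not tested. Fewer cells of a type and less RNA per cell cannot be told apart in tissue RNA. The 5 markers of bone moved the other way, with medians of -0.56 and 0.29, and 4 of them fell and then rose. Of 6 markers of skeletal muscle 2 fell and 1 rose at 4 weeks and 4 fell and 1 rose at 8 weeks, with a median of -0.76 at 8 weeks. Of 6 markers of glia 2 rose and 1 fell at each time, with list medians of 0.01 and -0.02. *Npy* gave -0.03 and -0.96, the lowest value of the list at 8 weeks, where the highest was 1.30. The summed level of the 6 at 8 weeks was 13.32 to 13.71 in the DEP channel and 12.87 to 13.10 in the control channel. In the other lists of 4 or 5 markers (smooth muscle, glands, ciliated epithelium, ionocytes and macrophages), list medians lay between -0.12 and 0.30 at 4 weeks and between -0.28 and 0.12 at 8 weeks.

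Of 20 genes for partner proteins of potassium channels without a *Kcn* symbol, 17 were tested. At 4 weeks 5 rose and 2 fell, beside 21.7% and 16.6% of all genes, and at 8 weeks 3 rose and 3 fell, beside 20.4% and 17%. *Abcc9*, the sulfonylurea receptor of channels closed by ATP, rose by 0.52 at 4 weeks and by 0.88 at 8 weeks. *Lrrc26*, which lets the *Kcnma1* channel open at rest, rose by 0.41 and by 0.35. Of 44 other voltage-gated cation channel genes 32 were tested, 11 rose and 2 fell at 4 weeks, and 5 rose and 9 fell at 8 weeks, beside the same shares. The sodium channel gene *Scn8a* rose by 0.94 at 4 weeks and by 1.103 at 8 weeks, the highest value of the 32 genes at both times. The study also lists *Scn8a* among its changed genes linked to olfaction, so its direction at 4 weeks is not independent evidence. The calcium channel gene *Cacna1h* rose by 0.61 at 4 weeks and fell by 0.29 at 8 weeks, and 3 of the 32 genes rose and then fell, beside 3.49% of all genes.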

How the data were processed

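RNA of the nasal cavity was compared on 7 Agilent arrays with 2 colours each. The authors deposited, for each array, median signals and backgrounds as intensity values from Feature Extraction 10.10.1.1, not normalized, together with processed intensities and their log10 ratio, of which the intensities served an alternative and the ratio was not used. Using R 4.3.3 and limma 3.58.1, normexp corrected the backgrounds (offset 50, estimated without spots marked as background outliers) and loess normalized log2 ratios within arrays. Control spots had weight 0, non-uniform spots were left out (*Kcnab3* has 3 values at 4 weeks), and spots of a probe were averaged. Tests covered probes detected above background by either dye on 3 or more arrays (25124 of 39429, for 20636 names). A gene is represented by its brightest tested probe, and 28330 probes were named through RefSeq GRCm38.p6. The 7 arrays shared 1 linear model with a mean for each exposure, and p-values were adjusted by Benjamini-Hochberg over all tested probes. Levels are channel values after Aquantile normalization.

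Members and lists were chosen with earlier results of these data known. Named by rule were *Kcna4*, *Kcnj1*, *Kcnj5*, genes past p of 0.01 and 2-fold, the 15 smallest p at each time with 1 sign on all arrays, the 8 smallest of the difference and the brightest gene of each subfamily. Other genes were named after their values were seen. The steps were tested on simulated data. Alternatives were processed signals, median centring, the background fit, the offset, filters on dim probes, the mean over probes, the arrays of each time alone, the t-test of the methods, a block and leaving out each array. Some genes are not reported here by name.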

Additional observations from a re-analysis of the deposited data

Results flagged for a closer look

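The log2 ratio of DEP over control differed between 8 and 4 weeks in 26 potassium channel genes by limma's test of the difference at an adjusted p of at most 0.05. It was lower at 8 weeks in 21 genes and higher in 5, beside 16.1% and 14.9% of all tested genes. Of these 26 calls, 11 were lost under at least 1 alternative. Among the 21 genes with a lower ratio at 8 weeks were differences (8 minus 4 weeks) of -1.65 for *Kcnj5*, -1.21 for *Kcnc4*, -1.17 for *Kcnh4*, -1.16 for *Kcnj1*, -0.82 for *Kcnj10*, -0.70 for *Kcnma1*, -0.69 for *Kcnmb3*, -0.68 for *Kcnk10*, -0.65 for *Kcnh3*, -0.61 for *Kcnq1*, -0.59 for *Kcna6*, -0.56 for *Kcng1*, -0.55 for *Kcna5*, -0.52 for *Kcnj16*, -0.50 for *Kcnn2*, -0.47 for *Kcnip4*, -0.45 for *Kcns3*, -0.42 for *Kcnj13*, -0.32 for *Kcnd3* and -0.28 for *Kcnrg*. The 5 genes with a higher ratio at 8 weeks had differences of 0.26 for *Kcnk13*, 0.29 for *Kcna4*, 0.53 for *Kcnk15*, 0.56 for *Kcnab1* and 0.65 for *Kcne3*. Of these, *Kcnk15* passed the filter through the DEP channel alone, so its difference is no support for a rise.

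In 13 of 59 values with 4 arrays at 4 weeks (single genes and the family median) 1 array lay far from the others by Dixon's ratio, where chance alone flags about 1 in 20. On replicate 1 of 4 weeks the log2 ratio that stood apart was -1.18 for *Kcnf1*, 0.47 for *Kcnk3*, 0.17 for *Kcnn2* and -0.51 for *Kcnq1ot1*. On replicate 2 of 4 weeks the log2 ratio that stood apart was -3.44 for *Kcna3*, -0.74 for *Kcnj4* and 1.04 for *Kcnj5*. On replicate 3 of 4 weeks the log2 ratio that stood apart was -1.32 for *Kcne1l* and -1.90 for *Kcnk2*. On replicate 4 of 4 weeks the log2 ratio that stood apart was 0.093 for *Kcnd1*, -0.049 for *Kcnd3*, -0.44 for *Kcnk10* and -0.25 for *Kcns1*.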

How the results depend on the processing

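Of the potassium channel calls, 14 of 25 at 4 weeks, 8 of 31 at 8 weeks and 15 of 26 in the difference held under every alternative run, and 1 fitted value changed sign with a call, *Kcne1l* at 4 weeks, at -0.17, which ranged from -0.31 to 0.22 over the arrays left out in turn and was 0.22 without replicate 3. The number of genes called at 4 weeks (25) was 16 with the background fitted on all spots. Fallen genes at 4 weeks (5) numbered 8 with processed signals, 2 with the background fitted on all spots and 3 with the methods' t-test. Calls at 8 weeks (31, with 9 rises and 22 falls) were 15 (5 and 10) both with the replicate block and with that t-test, and 4 rises were left with median centring. Over all tested genes the 4204 rises and 3507 falls at 8 weeks were 2417 and 2045 with the block and 2579 and 2244 with that t-test. Genes that rose and then fell (10) numbered 6 without a filter, 4 with the background fitted on all spots, 2 with the replicate block and 2 with that t-test. Rises in the difference (5) were 3 with median centring, 3 with the background fitted on all spots, 3 with the replicate block and 2 with probes above background in both channels on every array. The *Kcna4* difference of 0.29 lost its call with processed signals (0.19, limma, adjusted p = 0.14), median centring (0.075), the background fitted on all spots (0.41) and the replicate block (0.30), the adjusted p of these alternatives and of leaving out arrays ranging from 0.011 to 0.47.

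The mean over arrays of the family median at 4 weeks (0.084) was 0.29 with processed signals, 0.045 with median centring, 0.018 without a filter, 0.064 with the background fitted on all spots, 0.12 with an offset of 10 and 0.21 with probes above background in both channels on every array. At 8 weeks (-0.158) it was -0.27, -0.25, -0.095, -0.21 (offset of 10) and -0.22 (both channels), in the same order without the background fit. Leaving out each array gave 2 to 6 falls at 4 weeks, 18 to 35 calls at 8 weeks with 10 to 24 falls, 2 to 10 genes that rose and then fell, 3 to 5 rises in the difference and a *Kcna4* difference of 0.26 to 0.33. Replicate numbers did not pair the arrays (correlations of deviations -0.006, -0.007 and 0.017). The replicate block gave 21 calls at 4 weeks. The causes of these changes were not tested. The planned use of gene names of the files was not run because the files hold none. The counts of partner and other cation channels and of genes that rose and then fell, and the genes outside the naming rule were run under the alternatives by a choice made after seeing the data. Dim genes are limited by signal over background.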
